A study of Homo sapiens with 15 samples.

Results

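The genes described here are 10 transcriptional targets and feedback components of the beta-catenin pathway (AXIN2, LGR5, NKD1, TCF7, LEF1, SP5, GLUL, TBX3, RNF43 and FRAT1) in HepG2, an established human liver cancer line. They were chosen by symbol as Wnt feedback genes and liver beta-catenin targets. Each symbol matched 1 row among the 41412 rows of the count matrix, and all 10 were among the 18380 genes with enough counts to be tested.

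In the canonical Wnt pathway, a destruction complex built on axin and APC marks beta-catenin for degradation, and a Wnt ligand bound to its Frizzled and LRP receptors stops this. Stabilized beta-catenin enters the nucleus, binds TCF/LEF proteins on DNA and turns on target genes, several of which encode brakes on the pathway itself. In liver, beta-catenin maintains the gene programme of hepatocytes around the central vein, including glutamine synthetase. HepG2 cells are known to carry a heterozygous in-frame deletion in CTNNB1, the beta-catenin gene, that removes the N-terminal phosphorylation sites, so part of their beta-catenin escapes degradation without a ligand. The labels give the genotype of all samples as WT, and the CTNNB1 row counts reads of both alleles together.

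RNA was sequenced from 5 groups of 3 libraries that the labels call biological replicates. Whether these came from separate cultures is not stated, so p-values measure the spread between these libraries. Cells of 1 group were left untransfected. Those of the remaining 4 were given 1 µg of mRNA encoding enhanced green fluorescent protein (eGFP), a reporter foreign to the cell, in lipid nanoparticles (NanoLNP reagent), and cells of all groups were harvested at 48 h. The mRNA was non-cloaked or had been treated with the reagent CR-3 at a weak (0.1 M, 0.5 h, 25 °C), medium (0.5 M, 1 h, 30 °C) or strong (1 M, 2 h, 37 °C) grade. No group had particles without mRNA, so a difference from untransfected cells covers particle and mRNA together.

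Libraries held 57128519 to 78548789 counts. Levels are given as CPM, counts relative to the library's total after scaling by TMM, a method that sets the bulk of genes equal between libraries, so every change is relative to that bulk. The first principal component (21.1% of the variance) placed the untransfected libraries at -70.5 to -68.6 and 11 transfected libraries at -7.8 to 44.1, with weak-cloaked replicate 1 apart from its group at -51.6. Where leaving it out changed the call of 1 of the 10 genes or moved its fold change by over 1.5 times, the value without it is given too. All 10 hepatocyte markers examined were detected, with ALB at 4494 to 6915 CPM and AFP at 204 to 285 CPM, while TTR reached only 3.10 to 6.88 CPM. Their summed level was 15438 to 18631 CPM in untransfected and 16372 to 20951 CPM in transfected libraries. Marker changes are log2 fold changes of the 4 transfected groups, averaged, against untransfected cells (quasi-likelihood test of edgeR). Genes were called at an adjusted p below 0.05, as were 23.1% of all tested genes. Of the 10 hepatocyte markers 4 were called: HNF4A (-0.66, adjusted p = 0.0054) and APOB (-0.53, adjusted p = 0.015) fell, and SERPINA1 (0.46, adjusted p = 0.017) and APOA1 (0.36, adjusted p = 0.046) rose. Markers of other cell types were mixed: PTPRC, COL1A2, KRT5 and SFTPC stayed at or below 0.110 CPM in every library, whereas LYZ, a lysozyme gene usually taken as myeloid, was at 871 to 1533 CPM and VIL1, the villin gene of brush-border epithelia, at 301 to 533 CPM. Summed over all 6 leukocyte markers the level was 1147 to 1569 CPM in untransfected and 930 to 1320 CPM in transfected libraries, and 1 of them, the lysosomal gene CD68, rose (1.87, adjusted p = 0.0069). The 7 stromal markers summed to 19.3 to 23.8 and 15.8 to 22.0 CPM, and 2 of them fell, VWF (-1.24, adjusted p = 0.011) and PDGFRB (-1.42, adjusted p = 0.0020). The 6 markers of other epithelia summed to 302 to 353 and 302 to 535 CPM, and 1 of them, TFF1, rose (1.84, adjusted p = 0.014). The part of these markers in the results was not tested.

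Transfection moved 4 of the 10 genes. Averaged over the 4 groups given mRNA, RNF43 was higher and FRAT1, LGR5 and SP5 were lower than in untransfected cells at an adjusted p below 0.05 (quasi-likelihood test of edgeR, p adjusted by Benjamini-Hochberg over all tested genes). Of all 18380 tested genes, 23.1% were called in this comparison, 10.4% higher and 12.7% lower. At an unadjusted p below 0.05 there were 6 of the 10 genes and 36.7% of all. In these bulk samples fewer cells that express a gene and less RNA per cell cannot be told apart. The median log2 fold change of the 10 genes was -0.35, and that of all tested genes was -0.05. Without weak-cloaked replicate 1, the same comparison called 5 of the 10 genes, 1 higher and 4 lower, with 32.4% of all tested genes called.

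**Figure D1:**
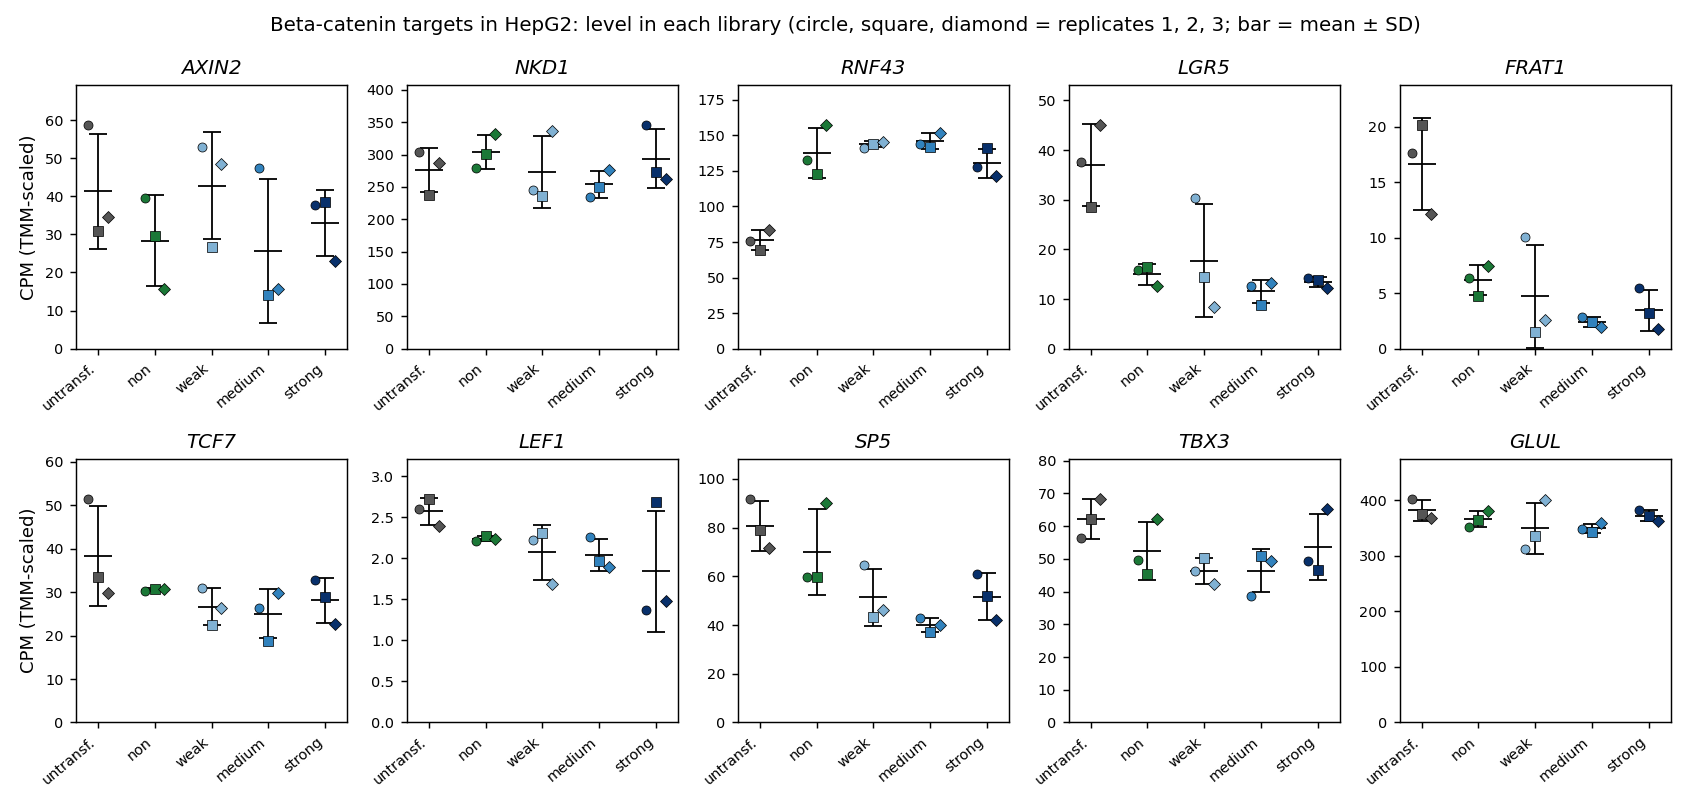
Level of each gene in all 15 libraries (vertical axis, TMM-scaled CPM from 0; horizontal axis, the 5 groups; circles, squares and diamonds are replicates 1, 2 and 3; bars show the mean ± SD). RNF43 lay higher in all 12 transfected libraries than in any untransfected one, FRAT1 lay lower in all 12, and AXIN2 spread widely inside several groups.

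Per kilobase of the longest principal transcript in the annotation, the levels spanned from glutamine synthetase at the top to LEF1 at the bottom. Over all 15 libraries the median level of GLUL was 77.4 CPM per kb (range 66.3 to 85.2), which did not overlap any other of the 10 genes. SP5 followed with a median of 29.3 (18.2 to 45.1), then RNF43 with 25.4 (12.4 to 28.2), NKD1 with 16.1 (13.7 to 20.2), TBX3 with 10.5 (8.21 to 14.5), TCF7 with 9.82 (6.19 to 16.9) and AXIN2 with 8.10 (3.28 to 13.8). Each of these overlapped its neighbours in the order. LGR5 had a median of 3.09 CPM per kb (1.83 to 9.76), FRAT1 1.78 (0.572 to 7.60) and LEF1 0.729 (0.445 to 0.887). The NKD1 level was computed over a transcript of 17105 nt, the longest of the set, and would be higher if shorter forms made up most of its mRNA.

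The feedback inhibitors AXIN2, NKD1 and RNF43 act at different steps, and of these 3 RNF43 rose while AXIN2 and NKD1 were not called. RNF43 encodes a membrane E3 ubiquitin ligase that removes Frizzled receptors from the cell surface (ENSG00000108375, GRCh38 chromosome 17, 58352500 to 58417595, minus strand). It measured 76.0, 69.4 and 83.4 CPM in untransfected replicates 1 to 3, 133, 123 and 157 CPM in non-cloaked, and 141, 144 and 145 CPM in weak-cloaked ones. In medium-cloaked libraries it stood at 144, 141 and 152 CPM, and in strong-cloaked ones at 128, 141 and 122 CPM. Every transfected library was thus above every untransfected one, and weak-cloaked replicate 1 (141 CPM) was as high as the rest of its group. The log2 fold change over the 4 groups was 0.87 ± 0.09 (SE; a 1.83-fold rise) with an adjusted p of 0.00022, and RNF43 ranked 21 by p among all tested genes. It was the only one of the 10 genes called in each group against untransfected cells, at 0.85 ± 0.11 in non-cloaked, 0.91 ± 0.11 in weak-cloaked, 0.94 ± 0.11 in medium-cloaked and 0.77 ± 0.11 in strong-cloaked cells (adjusted p 0.0024, 0.0014, 0.0012 and 0.0024). The call in weak-cloaked cells was lost when only those 2 groups were fitted (0.93 ± 0.14, adjusted p = 0.13). With libraries scaled by total counts the pooled rise was still called, and it was at least 0.64 in every alternative run.

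RNF43 shares 594 nt on the same strand with SUPT4H1, a transcription elongation factor gene that rose by a smaller amount (0.36 ± 0.10, adjusted p = 0.021). TSPOAP1-AS1 overlaps RNF43 on the opposite strand over 63267 nt and had 535 counts in all 15 libraries together. The annotated protein-coding gene AC004687.2 overlaps RNF43 on the same strand over 65096 nt, and no row was found for it among the counts. How the authors' counting treated reads in shared stretches is not given in the sources used here, and their part in the RNF43 values was not tested.

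AXIN2 encodes a scaffold of the destruction complex and is a widely used readout of beta-catenin activity (ENSG00000168646, chromosome 17, 65528563 to 65561647, minus strand). It measured 58.7, 30.8 and 34.5 CPM in untransfected replicates 1 to 3, 39.5, 29.7 and 15.7 CPM in non-cloaked, and 53.1, 26.7 and 48.6 CPM in weak-cloaked ones. Medium-cloaked libraries had 47.5, 14.0 and 15.6 CPM, and strong-cloaked ones 37.6, 38.5 and 23.1 CPM. The groups overlapped throughout, and replicates of the medium-cloaked group alone differed 3.40-fold. The log2 fold change over the 4 groups was -0.38 ± 0.37 (adjusted p = 0.51), with a 95% interval from -1.18 to 0.43. At this spread between replicates, true differences anywhere inside that interval, 0 among them, remain possible. The libraries held 921 to 4826 AXIN2 counts each. The annotated protein-coding gene AC004805.1 overlaps AXIN2 on the same strand over 23546 nt. No row was found for it among the counts, and its part in the AXIN2 values was not tested.

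NKD1, which encodes a Dishevelled-binding antagonist (chromosome 16, 50548330 to 50649249), had the highest counts of the 3 inhibitors and the smallest shift. It ranged from 238 to 304 CPM in untransfected and from 235 to 345 CPM in transfected libraries. Its log2 fold change was 0.02 ± 0.12 (adjusted p = 0.93; 95% interval -0.24 to 0.28), and 3 transfected libraries lay above and 2 below the untransfected range.

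LGR5, a receptor for R-spondins that marks stem cells in several tissues (ENSG00000139292, chromosome 12, 71439770 to 71586310, plus strand), fell. It measured 37.5, 28.6 and 45.0 CPM in untransfected replicates 1 to 3 and 15.9, 16.5 and 12.5 CPM in non-cloaked ones. Weak-cloaked libraries had 30.4, 14.4 and 8.45 CPM, medium-cloaked ones 12.6, 8.77 and 13.2 CPM, and strong-cloaked ones 14.3, 13.8 and 12.2 CPM. Weak-cloaked replicate 1 alone overlapped the untransfected range, and the other 11 transfected libraries were all below it. Over the 4 groups LGR5 fell by 1.38 ± 0.25 on the log2 scale (2.60-fold lower, adjusted p = 0.0034), or by 1.54 without weak-cloaked replicate 1 (adjusted p = 7.3e-05). TSPAN8, which overlaps LGR5 on the opposite strand, had 641 counts in all libraries together.

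FRAT1, whose protein binds the kinase GSK3 and keeps it from phosphorylating beta-catenin, showed the largest change of the 10 genes (ENSG00000165879, chromosome 10, 97319267 to 97321915, plus strand). It measured 17.7, 20.1 and 12.1 CPM in untransfected replicates 1 to 3 and 6.38, 4.72 and 7.44 CPM in non-cloaked ones. Weak-cloaked libraries had 10.0, 1.52 and 2.59 CPM, medium-cloaked ones 2.87, 2.42 and 1.92 CPM, and strong-cloaked ones 5.43, 3.17 and 1.78 CPM. All 12 transfected libraries were below all 3 untransfected ones, with weak-cloaked replicate 1 the highest of the 12. Over the 4 groups FRAT1 fell by 2.08 ± 0.39 on the log2 scale (4.22-fold lower, adjusted p = 0.0041), or by 2.38 without weak-cloaked replicate 1 (adjusted p = 6.3e-05).

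**Figure D2:**
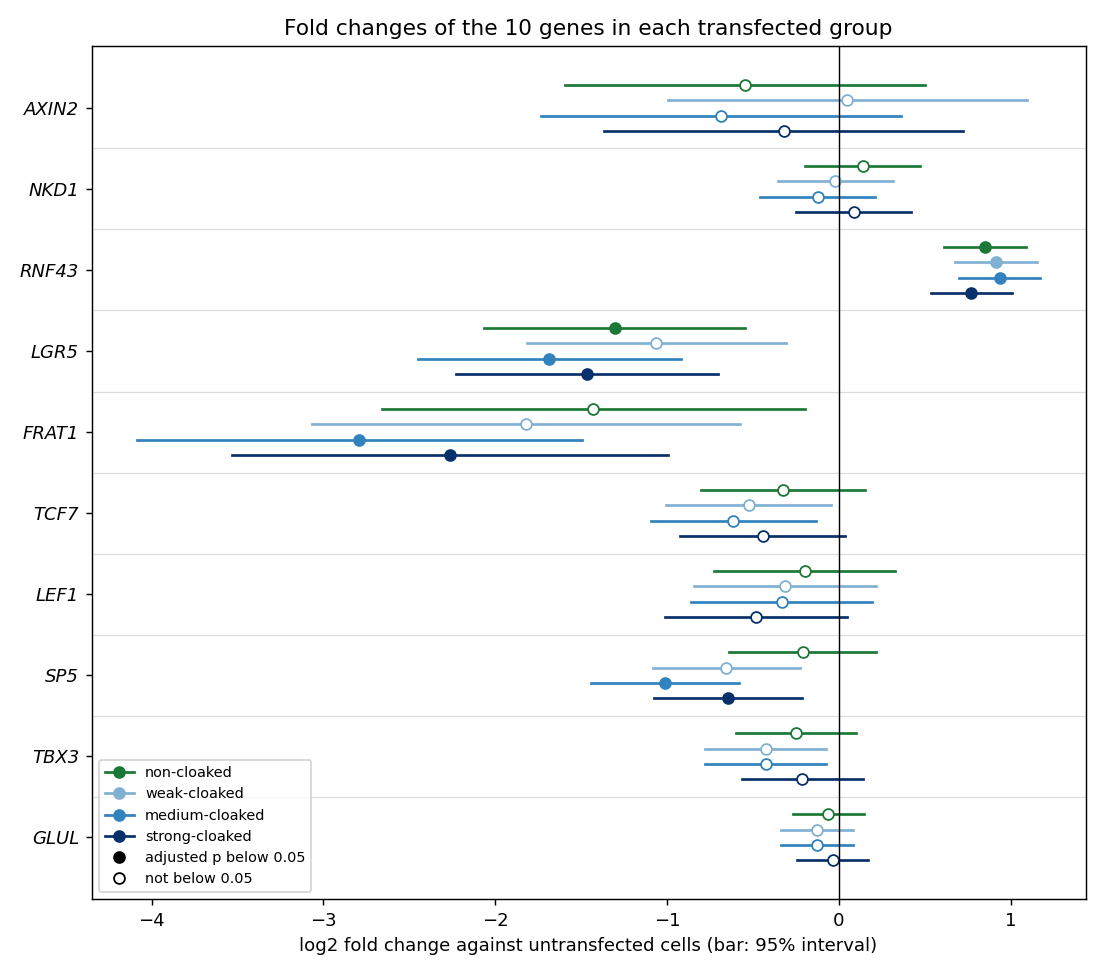
Log2 fold change of each gene in each transfected group against untransfected cells (horizontal axis; points are estimates, bars 95% intervals, filled points have an adjusted p below 0.05). RNF43 lies to the right of 0 in all 4 groups, FRAT1 and LGR5 lie to the left, and the intervals of AXIN2, NKD1, LEF1 and GLUL include 0 in every group.

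Among the transcription factors, SP5 fell, and TCF7, TBX3 and LEF1 did not pass the test. SP5 encodes a zinc-finger factor of the Sp family and is a direct beta-catenin target (ENSG00000204335, chromosome 2, 170715351 to 170718078, plus strand). It measured 91.8, 78.9 and 71.5 CPM in untransfected replicates 1 to 3 and 59.6, 59.8 and 90.2 CPM in non-cloaked ones. Weak-cloaked libraries had 64.5, 43.2 and 46.3 CPM, medium-cloaked ones 42.9, 37.1 and 40.2 CPM, and strong-cloaked ones 61.1, 51.9 and 42.0 CPM. Only non-cloaked replicate 3 overlapped the untransfected range. Over the 4 groups SP5 fell by 0.63 ± 0.15 on the log2 scale (1.55-fold lower, adjusted p = 0.011), and without untransfected replicate 1 the call was lost (-0.53 ± 0.18, adjusted p = 0.064).

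The promoter table drawn from RefSeq (GRCh38.p14), which gives 250 bases before to 50 after a gene's start, held 9 windows for 6 of the genes: TCF7, GLUL and RNF43 with 2 each, and LEF1, SP5 and FRAT1 with 1 each. They were searched on both strands for the TCF/LEF core motifs CTTTGAA and CTTTGAT and for the variants CTTTGTA as well as CTTTGTT, and no 2 matches overlapped. SP5 had 3 matches and 1 of the 2 TCF7 windows had 1, and the other 7 windows had none. Of 35116 windows of the same length, 13.8% held at least 1 of these motifs and 2.62% held CTTTGAT, and of the 19360 windows of tested genes 9.76% and 1.69% did. The 250 bases before the start are printed 5′ to 3′ for the 3 called genes in the table (for RNF43 the window nearest the annotated gene start), with motif matches in capitals, because SP5 and FRAT1 fell and RNF43 rose.
SP5 (chr2:170715087-170715336, plus strand): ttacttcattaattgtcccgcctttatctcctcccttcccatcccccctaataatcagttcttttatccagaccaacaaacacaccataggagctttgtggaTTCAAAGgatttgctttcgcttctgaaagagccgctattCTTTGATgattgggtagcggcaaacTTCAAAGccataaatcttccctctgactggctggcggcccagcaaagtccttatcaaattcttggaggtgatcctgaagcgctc
FRAT1 (chr10:97319021-97319270, plus strand): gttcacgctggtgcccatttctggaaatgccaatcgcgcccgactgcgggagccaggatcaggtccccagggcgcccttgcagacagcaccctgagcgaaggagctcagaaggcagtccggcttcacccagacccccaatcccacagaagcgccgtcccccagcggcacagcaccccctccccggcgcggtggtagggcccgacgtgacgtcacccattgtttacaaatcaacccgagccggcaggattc
RNF43 (chr17:58417535-58417784, minus strand): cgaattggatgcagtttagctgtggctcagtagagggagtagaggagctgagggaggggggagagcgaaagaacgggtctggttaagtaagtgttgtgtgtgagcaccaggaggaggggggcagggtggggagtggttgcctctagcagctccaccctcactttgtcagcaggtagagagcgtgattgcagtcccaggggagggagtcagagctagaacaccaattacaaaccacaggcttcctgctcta

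In the SP5 window the matches begin 148, 109 and 84 bases before the start. The middle one is CTTTGAT as written, and the outer 2 are CTTTGAA on the reverse strand. The TCF7 match is CTTTGTT on the reverse strand and begins 50 bases before the start of its own window (chr5:134123368-134123667). That start lies inside the annotated gene, and the window nearer the annotated gene start (chr5:134115363-134115662) had no match. The match is shown in a stretch of 30 bases, in capitals, since TCF7 was the gene closest to the threshold without passing it.
TCF7 (match at chr5:134123568-134123574, plus strand): ggccccactggAACAAAGgaggagagaggc

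TCF7 and LEF1 encode 2 of the DNA-binding partners of beta-catenin and are themselves induced by it in many cells. TCF7 (chromosome 5, 134114711 to 134151865) ranged from 29.9 to 51.5 CPM in untransfected and from 18.8 to 32.9 CPM in transfected libraries, and 6 of the 12 transfected libraries lay below the untransfected range. Its log2 fold change was -0.48 ± 0.17 with an adjusted p of 0.059, and it was not called without any 1 of 13 of the 15 libraries. The values ranged from -0.20 (adjusted p = 0.45) without untransfected replicate 1 to -0.63 (adjusted p = 0.038) without untransfected replicate 3, and without weak-cloaked replicate 1 the value was -0.51 (adjusted p = 0.035). SKP1, on the opposite strand over 2931 nt at the end of TCF7, had 267307 counts in all libraries together and rose (0.34 ± 0.08, adjusted p = 0.0084), and the strand setting of the counting is not given in the sources used here. LEF1 (chromosome 4, 108047545 to 108168956) was low, at 2.39 to 2.72 CPM in untransfected and 1.36 to 2.69 CPM in transfected libraries, with 95 to 238 counts per library. Its log2 fold change was -0.33 ± 0.19 (adjusted p = 0.23), and 11 of 12 transfected libraries were below the untransfected range. LEF1-AS1, which overlaps it on the opposite strand, had 19 counts in all libraries together.

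TBX3, a T-box repressor expressed in liver progenitors and beta-catenin-active hepatocellular tumours (chromosome 12, 114670254 to 114684164), ranged from 56.3 to 68.3 CPM in untransfected and from 38.8 to 65.2 CPM in transfected libraries. Of the 12 transfected libraries 10 were below the untransfected range, and the log2 fold change was -0.33 ± 0.13 (adjusted p = 0.077).

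GLUL, the gene of glutamine synthetase, is the classical liver target of beta-catenin (ENSG00000135821, chromosome 1, 182381704 to 182392206, minus strand). It measured 402, 374 and 368 CPM in untransfected replicates 1 to 3. The 12 transfected libraries ranged from 313 (weak-cloaked replicate 1) to 401 CPM (weak-cloaked replicate 3) with a median of 361 CPM, and 8 of them lay below the untransfected range. The log2 fold change was -0.09 ± 0.08 (adjusted p = 0.44), with a 95% interval from -0.25 to 0.08. This depended on the scaling: with libraries scaled by total counts, the same test called GLUL lower (-0.32 ± 0.06, adjusted p = 0.0027). It was then also called lower in weak-cloaked, medium-cloaked and strong-cloaked cells (adjusted p 0.033, 0.0095 and 0.018). GLUL pseudogenes with rows of their own had 18 counts in all libraries together (GLULP4) or none.

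**Figure D3:**
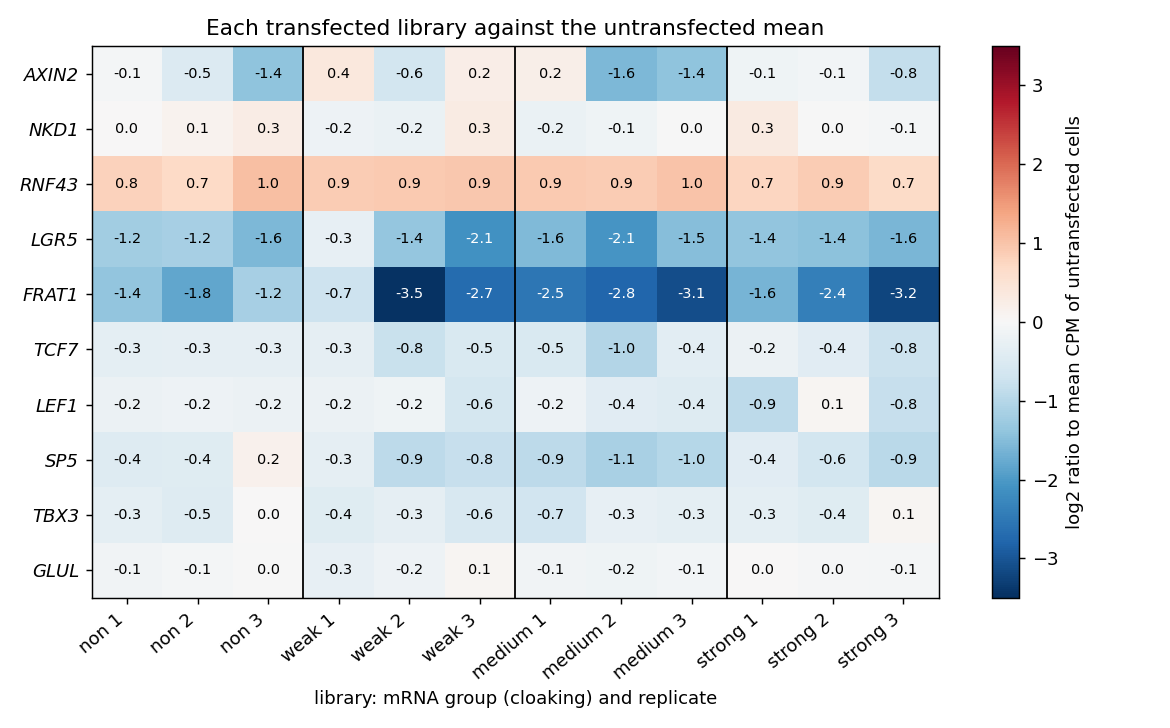
Log2 ratio of each transfected library to the mean CPM of the 3 untransfected libraries (columns are the 12 libraries by mRNA group and replicate, rows the 10 genes; red is higher, blue lower). The RNF43 row is red in every column, and the LGR5 and FRAT1 rows are palest in weak-cloaked replicate 1 (ratios of -0.29 and -0.73).

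Weak-cloaked replicate 1 did not stand apart in the same way for each gene. Its FRAT1 level (10.0 CPM) was above the range of the other 11 transfected libraries (1.52 to 7.44), as was its LGR5 level (30.4 against 8.45 to 16.5) and its AXIN2 level (53.1 against 14.0 to 48.6). Its RNF43 level of 141 CPM equalled the median of the other 11 to 3 digits. Its GLUL level of 313 CPM was below their range (335 to 401). In weak-cloaked against untransfected cells RNF43 was the only one of the 10 genes called (beside 3.29% of all tested genes, 2.11% higher and 1.19% lower), and without this library LGR5 (-1.70), FRAT1 (-3.03) and SP5 (-0.86) were called too, with adjusted p of 0.0016, 0.0012 and 0.0097, where 21.9% of all tested genes were. At an unadjusted p below 0.05 there were 6 of the 10 genes in this comparison with all libraries, beside 22.6% of all tested genes.

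The other 3 grades were compared with the same untransfected libraries, so these counts are not independent of each other. In non-cloaked cells 2 of the 10 genes were called (6.50% of all tested genes, 3.84% higher and 2.66% lower), namely RNF43 and LGR5. LGR5 was at -1.30 ± 0.35 with an adjusted p of 0.045, and the call was lost without any 1 of 13 of the 15 libraries, with an adjusted p of up to 0.15. FRAT1 was at -1.43 ± 0.57 there (adjusted p = 0.13), and at -1.43 with an adjusted p of 0.019 without weak-cloaked replicate 1. Medium-cloaked cells had 4 called genes (13.7% of all tested genes, 6.25% higher and 7.49% lower), with RNF43 higher and FRAT1 (-2.79 ± 0.60), LGR5 (-1.68 ± 0.36) and SP5 (-1.01 ± 0.20) lower (adjusted p 0.012, 0.011 and 0.0089). Strong-cloaked cells had the same 4 (15.1% of all tested genes, 7.99% higher and 7.11% lower), with FRAT1 at -2.26 ± 0.59, LGR5 at -1.46 ± 0.35 and SP5 at -0.64 ± 0.20 (adjusted p 0.025, 0.019 and 0.046). The SP5 call in strong-cloaked cells was lost without any 1 of 9 of the 15 libraries. At an unadjusted p below 0.05 there were 3, 6 and 4 of the 10 genes in non-cloaked, medium-cloaked and strong-cloaked cells, beside 27.5%, 29.8% and 31.8% of all tested genes. The count in medium-cloaked cells was 2 without medium-cloaked replicate 2, where the share of all tested genes called was 4.35%. In strong-cloaked cells it was 2 without any 1 of the 3 untransfected libraries (7.04%, 5.22% and 9.82% of all tested genes) or without strong-cloaked replicate 2 (5.22%), and 1 without strong-cloaked replicate 3 (4.09%).

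Each cloaked group was also set against the non-cloaked one. CR-3 concentration, time and temperature changed together between grades, and no such incubation is listed for the non-cloaked mRNA. Cloaking and incubation therefore cannot be told apart. None of the 10 genes was called in any of the 3 comparisons or in a joint test over all 4 groups given mRNA. By the same edgeR test, at most 1 gene was called among all 18380 in any of these (0.00544% for weak-cloaked against non-cloaked and for the test over 4 groups, 0 for the others). At an unadjusted p below 0.05 there were 1 of the 10 genes in weak-cloaked, 2 in medium-cloaked and 1 in strong-cloaked against non-cloaked cells, beside 3.92%, 9.50% and 3.61% of all tested genes. In the test over 4 groups there was 1, SP5 (unadjusted p = 0.011, adjusted p = 0.99), at rank 160 by p among all tested genes. The share of all tested genes at that threshold was not computed for the joint test. DESeq2 called none of the 10 in these 4 comparisons either, where it called 19, 76 and 15 of all tested genes for weak-cloaked, medium-cloaked and strong-cloaked against non-cloaked cells and 55 in the joint test. Without weak-cloaked replicate 1, FRAT1 in weak-cloaked against non-cloaked cells went from -0.39 to -1.59 (adjusted p = 0.54) and LGR5 from 0.24 to -0.39 (adjusted p = 0.83). SP5 accounted for the low p in each comparison. Its 3 medium-cloaked libraries were at 37.1 to 42.9 CPM and the 3 non-cloaked ones at 59.6 to 90.2 CPM. The log2 difference was -0.80 ± 0.20, with an unadjusted p of 0.0014 and an adjusted p of 0.46. How many of all tested genes separate these groups of 3 libraries in this way was not computed. FRAT1 was the other gene with a low p in the medium-cloaked comparison, at -1.36 ± 0.57 (unadjusted p = 0.034, adjusted p = 0.50), with libraries of 1.92 to 2.87 CPM against 4.72 to 7.44 CPM. The intervals for the remaining genes were narrowest for GLUL, at -0.18 to 0.23 in strong-cloaked against non-cloaked cells, and widest for FRAT1 and AXIN2, at -2.06 to 0.39 and -0.82 to 1.27.

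Relatives of 3 of the genes were called in the pooled comparison with untransfected cells, in 1 case in the opposite direction. ZNRF3, which encodes the second membrane ligase that removes Frizzled receptors and is also a Wnt target, fell by 0.89 ± 0.22 (adjusted p = 0.012) while RNF43 rose. Without untransfected replicate 2 the call was lost (-0.67, adjusted p = 0.094). It ranged from 59.9 to 96.0 CPM in untransfected and from 26.0 to 64.0 CPM in transfected libraries, of which weak-cloaked replicate 1 was the highest and alone overlapped the untransfected range. LGR4, the more broadly expressed R-spondin receptor, fell by 1.32 ± 0.44 (adjusted p = 0.046). It ranged from 37.3 to 84.8 CPM in untransfected and from 5.15 to 47.6 CPM in transfected libraries. As for LGR5, weak-cloaked replicate 1 alone overlapped the untransfected range. The LGR4 call was lost without any 1 of 12 of the 15 libraries, and without weak-cloaked replicate 1 the value was -1.51 (adjusted p = 0.0135). FRAT2, the neighbour and paralog of FRAT1, fell by 0.65 ± 0.14 (adjusted p = 0.0073), from 46.2 to 55.3 CPM to between 25.1 and 46.1 CPM, a narrow separation at its upper end. Counts of both are uncertain where the paralogs are alike.

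**Figure D4:**
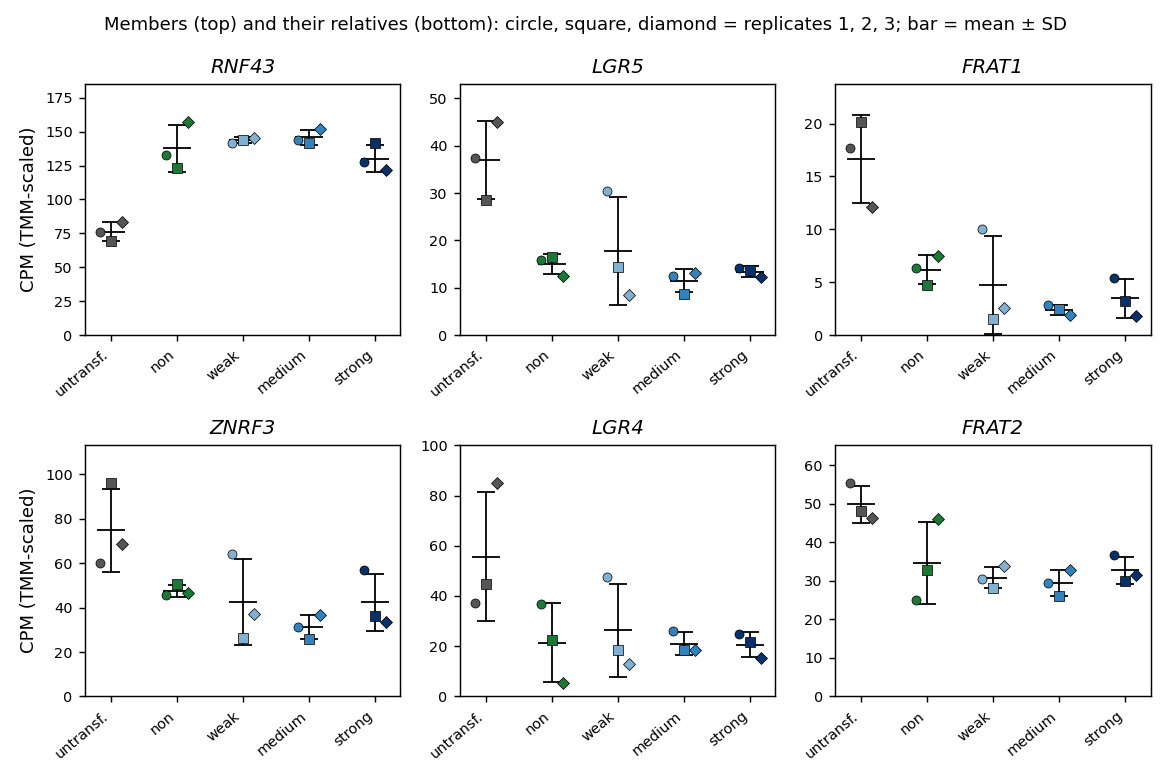
Level of RNF43, LGR5 and FRAT1 (top) and of their relatives ZNRF3, LGR4 and FRAT2 (bottom) in all 15 libraries (TMM-scaled CPM from 0; circles, squares and diamonds are replicates 1, 2 and 3; bars show the mean ± SD). RNF43 is higher and ZNRF3 mostly lower in transfected cells, and FRAT2 is below its untransfected range in all 12 transfected libraries.

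Over the rest of the pathway, 27 of 106 tested genes were called in transfected against untransfected cells (25.5%, against 23.1% of all tested genes), 11 higher and 16 lower. The split between directions moved with the scaling, to 5 higher and 24 lower with total counts and to 16 higher and 15 lower with length and GC offsets. With total counts WNT10B, KREMEN1, KREMEN2, CSNK1E, TLE3 and OAT, all higher by TMM, were not called. WNT7B, WNT9B, FZD4, AMER1, FRAT2, PCK1 and HAL, described with their groups, stayed called without any 1 library, whereas LGR4, APC, KREMEN1 and DKK3 lost the call without any 1 of 11 or 12 libraries and the other called genes without any 1 of 1 to 4. CTNNB1 itself was not called. It ranged from 155 to 232 CPM in untransfected and from 175 to 267 CPM in transfected libraries, with a log2 fold change of 0.20 ± 0.14 (adjusted p = 0.35; 95% interval -0.11 to 0.51).

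Of 19 tested ligand and ligand-secretion genes, 3 rose and 2 fell (list median 0.16, against -0.05 over all tested genes). WNT7B rose most, from 0.744 to 1.06 CPM in untransfected to between 3.08 and 4.87 CPM in transfected libraries, without overlap (2.11 ± 0.21, adjusted p = 0.00015). WNT9B rose as well (0.94 ± 0.20, adjusted p = 0.0058), while WNT8B (-1.87 ± 0.49, adjusted p = 0.017) and WNT5A, a ligand known mostly for beta-catenin-independent signalling (-1.51 ± 0.41, adjusted p = 0.019), fell. The fifth called gene, WNT10B, named after its values were seen, rose too (0.57 ± 0.17, adjusted p = 0.027). The highest level of any of these in a library was 4.87 CPM.

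Beside 12.7% of all tested genes lower and 10.4% higher, 4 of 17 receptor genes fell and none rose (list median -0.34). Besides LGR4 these were the Frizzled genes FZD4 (-0.91 ± 0.17, adjusted p = 0.0038), FZD1 (-0.86 ± 0.18, adjusted p = 0.0066) and FZD6 (-1.15 ± 0.27, adjusted p = 0.0091). FZD4 was at 76.5 to 81.6 CPM in untransfected and at 24.6 to 52.0 CPM in transfected libraries, with no overlap.

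Of 12 tested secreted inhibitors and their receptors, 2 rose and 1 fell (list median 0.21). KREMEN2 and KREMEN1, receptors for the DKK inhibitors, rose by 0.87 ± 0.24 and 0.56 ± 0.18 (adjusted p 0.019 and 0.042), and DKK3 fell (-1.02 ± 0.35, adjusted p = 0.049). DKK1 and NOTUM, named after their values were seen because they are known beta-catenin targets, were abundant and not called. DKK1 ranged from 573 to 1134 CPM in untransfected and 784 to 1596 CPM in transfected libraries (0.29 ± 0.20, adjusted p = 0.32), and NOTUM from 195 to 340 and 130 to 464 CPM (0.21 ± 0.36, adjusted p = 0.72).

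Of 17 genes of the destruction complex and its regulators, 6 fell and 1 rose (list median -0.03), beside 12.7% and 10.4% of all tested genes. The lowest p values were those of AMER1, which recruits APC to the membrane (-1.26 ± 0.26, adjusted p = 0.0059), FRAT2, the tankyrase gene TNKS2, whose product destabilizes axin (-0.81 ± 0.22, adjusted p = 0.018), and BTRC, the ubiquitin ligase subunit that recognizes phosphorylated beta-catenin (-0.87 ± 0.24, adjusted p = 0.020). The other called genes, named after their values were seen, were DVL2 (-0.42), APC (-1.22) and CSNK1E, a casein kinase gene and the 1 that rose (0.87). Of 15 nuclear partners and co-factors 1 was called, the co-repressor gene TLE3 (0.54 ± 0.15, adjusted p = 0.018; list median -0.08).

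Of 11 other tested target genes, 2 fell and 1 rose (list median -0.00). ZNRF3 and TNFRSF19, which encodes a TNF-family receptor (-0.52 ± 0.15, adjusted p = 0.027), fell, and JUN, a subunit of AP-1 that responds to many stimuli, rose (1.05 ± 0.26, adjusted p = 0.013).

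Among genes zoned in liver, the called pericentral ones were all higher and the called periportal ones went in both directions. Of 8 tested pericentral genes, which beta-catenin supports in liver, 2 rose and none fell (list median 0.33), beside 10.4% of all tested genes higher and 12.7% lower. They were CYP1A2 (1.34 ± 0.32, adjusted p = 0.011), at no more than 1.40 CPM in any library, and the ornithine aminotransferase gene OAT (0.44 ± 0.13, adjusted p = 0.025). Of 7 tested periportal genes (list median 0.16), PCK1, a gluconeogenic enzyme gene, rose (1.82 ± 0.30, adjusted p = 0.0019). HAL, the histidine ammonia-lyase gene, fell (-1.20 ± 0.22, adjusted p = 0.0033).

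The genes most like 3 of the members over the 15 libraries were found by the root mean square (RMS) difference of log2 CPM after each gene was centred on its own mean, among 11872 genes, those averaging 1 or more in log2 CPM. RNF128 (0.21), DIXDC1 (0.23) and GOPC (0.24) were nearest to LGR5, whose own RMS deviation was 0.70. FURIN (0.04), AP3D1 (0.05) and DLST (0.05) were nearest to GLUL, whose own deviation was 0.09. For AXIN2 the nearest genes, CC2D1A, DDRGK1 and RGL1, were at 0.40, 0.41 and 0.42 beside an own deviation of 0.64, a poorer match. These are descriptions of 15 libraries that share a split between untransfected and transfected cells.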

How the data were processed

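Poly(A)-enriched, strand-specific libraries of 15 HepG2 samples were sequenced, per the labels' protocols. The deposited values are raw counts, 1 column a library, and the submitters' processing notes name HISAT2, HTSeq, DESeq2 1.46.0, R 4.4.2 and GRCh38. Annotation release and strand setting: not given in the sources used here. Columns were matched to samples by the column names in the labels.

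Counts were analysed with edgeR 4.0.16 in R 4.3.3: filterByExpr, TMM scaling, robust dispersions and 1 mean per group over all 15 libraries, with genes called at an adjusted p below 0.05. No 2 libraries of a group agreed within sampling noise, and each was 1 sample. The spread between replicates (biological coefficient of variation 0.344) sets the precision. The members and gene lists were chosen with earlier results of these data known. Named were all members, up to 4 called genes per pathway list, CTNNB1 and the 3 genes most like each of AXIN2, LGR5 and GLUL. Positions and transcript lengths came from GENCODE on GRCh38. The fit was tested on simulated data. Alternatives were DESeq2 1.42.0, other scalings and filters, non-robust estimation, the replicate number as a block, offsets for length and GC content, fits restricted to the groups compared, and fits without each library in turn.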

Additional observations from a re-analysis of the deposited data

How the results depend on the processing

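RNF43, LGR5 and FRAT1 kept their direction and call in transfected against untransfected cells under all 24 alternatives run, and SP5 under 23 of them. In place of 4 members, total-count scaling called 8 (1 higher and 7 lower), with 28.9% of all tested genes called. The members added, all lower, were GLUL (-0.32, adjusted p = 0.0027), TBX3 (-0.56, adjusted p = 0.0063), TCF7 (-0.70, adjusted p = 0.015) and LEF1 (-0.56, adjusted p = 0.048). That scaling moved the median of all genes by -0.225, and 17.8% of its 5303 called genes were higher, against 1906 of 4242 by TMM. Non-cloaked against untransfected cells gave 1 member in place of 2 with no filter, with length and GC offsets, and with those offsets and the replicate block (2.99%, 5.72% and 7.52% of all tested genes, against 6.50%). Weak-cloaked against untransfected cells gave, in place of 1 (3.29% of all tested genes), 4 with DESeq2 (11%), 2 with total counts (3.75%), 2 with the replicate block (4.44%), 3 with offsets and block (8.47%), and 0 with only the groups compared (0.0218%). Medium-cloaked against untransfected cells gave 7 with total counts (16.5%) in place of 4 (13.7%). Beyond the construction of each alternative, the cause was not tested.

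With single libraries left out, the counts ranged from 3 to 5 (transfected), 1 to 3 (non-cloaked), 1 to 4 (weak-cloaked), 2 to 5 (medium-cloaked) and 1 to 4 (strong-cloaked), each against untransfected cells. Comparisons among transfected groups stayed at 0. In the fits against untransfected cells the share of all tested genes called also varied. In the same order it ranged from 11.8% to 32.4%, 0.686% to 17.2%, 0.642% to 21.9%, 4.35% to 20.7% and 4.09% to 23%. Other pathway and liver-zoned genes called ranged from 13 (without untransfected replicate 3) to 36 (without weak-cloaked replicate 1), with 14 and 17 without untransfected replicates 1 and 2. Of all tested genes, 15.3%, 32.4%, 13.6% and 11.8% were called in these 4 fits. No member's called direction reversed. The signs of GLUL and NKD1 in the pooled comparison, neither called by TMM scaling, varied between alternatives (-0.32 to 0.15 and -0.21 to 0.28).

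The labels name no pairing of libraries by replicate number. Same-numbered libraries deviated together with a correlation over 0.1 in 2 of 30 pairs of libraries (highest 0.174). Weak-cloaked replicate 2 and strong-cloaked replicate 3, unlike in number, reached 0.113. Among the 3 libraries of the other group, 12 of 30 correlated best with their own number. Whether the numbers mark paired libraries cannot be told from these values. With the replicate block 5 members were called in the pooled comparison, TCF7 being added (adjusted p = 0.049).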
